A study of Mus musculus with 6 samples.

Results

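The cyclin-dependent kinase inhibitor genes were measured in coronal sections of mouse brain at 3 ages. Their 7 members, Cdkn1a, Cdkn1b, Cdkn1c, Cdkn2a, Cdkn2c, Cdkn2d and Gadd45a, were chosen by symbol from the 19465 genes of the feature table, and all 7 were listed in all 6 matrices. The sections came from male C57BL/6J mice at postnatal day 21 (P21), as adults of 12 to 15 weeks and when aged 28 months, with 2 sections per age, each labelled as a biological replicate and numbered here within its age. None of the mice carried a transgene or received an agent. The labels give the ages separate origins (bred in the laboratory at P21, and from different sources as adult and aged mice), whereas the study's methods name a single supplier for all mice, so whether origin differed with age is not settled here. The assay was the probe-based Visium method for formalin-fixed, paraffin-embedded tissue, which counts unique molecular identifiers (UMIs) in small tissue spots. A spot holds several cells of different types, so a lower level can come from fewer cells of a type or from less RNA per cell, and these cannot be told apart. The aged sections were also run on another slide version and another release of the counting software than the P21 and adult sections. For the aged sections alone, the study's methods also name the CytAssist instrument for transfer to the slide. They further name a probe design changed to capture transcripts more sensitively. Age and all these steps cannot be told apart in the aged comparison. The sections held 2917 to 3679 spots and 42422997 to 106783660 UMIs each.

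Cell division is driven by cyclin-dependent kinases, and 2 families of small proteins hold these kinases back. The Cip/Kip proteins p21 (Cdkn1a), p27 (Cdkn1b) and p57 (Cdkn1c) bind complexes of cyclins and kinases. The INK4 proteins encoded by Cdkn2a (p16), Cdkn2c (p18) and Cdkn2d (p19) block the kinases that pair with D-type cyclins, and Cdkn2a also encodes ARF, which stabilises p53, from another reading frame. Gadd45a is a growth arrest and DNA damage gene that p53 can activate, and Cdkn1a is the best known p53 target. Most cells of the brain have left the cell cycle, and Cdkn1a and Cdkn2a are the 2 members most used as marks of senescence, a lasting arrest of the cycle.

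The genes lie on chromosomes 17 (Cdkn1a), 6 (Cdkn1b and Gadd45a), 7 (Cdkn1c), 4 (Cdkn2a and Cdkn2c) and 9 (Cdkn2d) of GRCm38, all annotated as protein coding. Promoter windows of 250 bases before an annotated start were available in RefSeq (GRCm38.p6) for 6 of the 7. The windows of Cdkn1a and Cdkn2a are shown because these were the 2 members called higher with age in whole sections, and each of them has 2 starts. Cdkn1a lies on the plus strand, with windows at chr17:29090729-29090978 and chr17:29093519-29093768. Cdkn2a lies on the minus strand, with windows at chr4:89294620-89294869 and chr4:89282193-89282442. All are written 5′ to 3′ along the gene, and capitals mark matches to a motif searched on both strands.
Cdkn1a start 1: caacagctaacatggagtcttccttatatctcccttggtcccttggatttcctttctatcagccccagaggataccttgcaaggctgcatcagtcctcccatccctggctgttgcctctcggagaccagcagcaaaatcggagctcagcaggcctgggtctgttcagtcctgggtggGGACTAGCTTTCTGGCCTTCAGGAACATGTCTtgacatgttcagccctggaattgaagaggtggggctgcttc
Cdkn1a start 2: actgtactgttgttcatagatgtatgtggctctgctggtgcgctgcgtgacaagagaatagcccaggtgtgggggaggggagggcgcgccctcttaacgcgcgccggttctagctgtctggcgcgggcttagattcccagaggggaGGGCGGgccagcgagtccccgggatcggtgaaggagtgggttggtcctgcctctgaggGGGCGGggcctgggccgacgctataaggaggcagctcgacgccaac
Cdkn2a start 1: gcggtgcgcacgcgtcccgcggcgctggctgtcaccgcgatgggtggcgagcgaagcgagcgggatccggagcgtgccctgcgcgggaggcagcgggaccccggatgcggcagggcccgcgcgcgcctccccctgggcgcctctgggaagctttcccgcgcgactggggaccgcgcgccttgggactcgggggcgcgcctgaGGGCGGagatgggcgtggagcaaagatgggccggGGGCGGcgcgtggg
Cdkn2a start 2: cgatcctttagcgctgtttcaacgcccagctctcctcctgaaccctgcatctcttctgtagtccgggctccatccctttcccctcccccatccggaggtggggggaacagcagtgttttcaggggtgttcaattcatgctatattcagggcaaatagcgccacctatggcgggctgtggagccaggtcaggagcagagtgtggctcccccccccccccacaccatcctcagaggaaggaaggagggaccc
The capitals at Cdkn1a start 1 are a p53 response element, here a pair of exact p53 half-sites with 0 to 13 bases between them, a search that was added after the windows were seen. Such an element was found in 21 of 32851 windows of this length (0.0639%), and in no other member's window. The capitals at Cdkn1a start 2 and at Cdkn2a start 1 are GC boxes (GGGCGG), 2 in each window, which 32.7% of all windows hold. The other motifs searched were the TATA box (TATAAA, in 12.4% of all windows), the CCAAT box (CCAAT, 33.8%), the E-box (CACGTG, 6.02%), the AP-1 site (TGANTCA, 6.75%) and the E2F site (TTTCGCGC or TTTGGCGC, 0.654%). None of these matched in the 4 windows, and the printed matches do not overlap each other. Cdkn2a start 2 held no match to any of them. A match is a description of these letters only.

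In whole sections, Cdkn1a was lowest in the adults and higher at both other ages, Cdkn2a was higher in the aged sections, and Cdkn2c was lower in the aged sections. Levels are given in CPM, the gene's UMIs scaled to the total of the section or zone. Fold changes are from edgeR's quasi-likelihood test on summed UMIs with normalisation for composition, against adults, with Benjamini-Hochberg adjustment over all genes tested. A call needed both an adjusted p below 0.05 and a change of more than 1.5 times. With 2 sections per group, the spread of a single gene is known only roughly. The edgeR test also draws on the spread of the other genes, over the sections of all ages. Its p-values and standard errors thus do not rest on the spread between the 2 sections of a group alone. A standard error here was worked back from the test, as the size of the log2 fold change divided by the square root of its F statistic. Both comparisons use the same 2 adult sections, so they are not independent of each other.

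**Figure D1:**
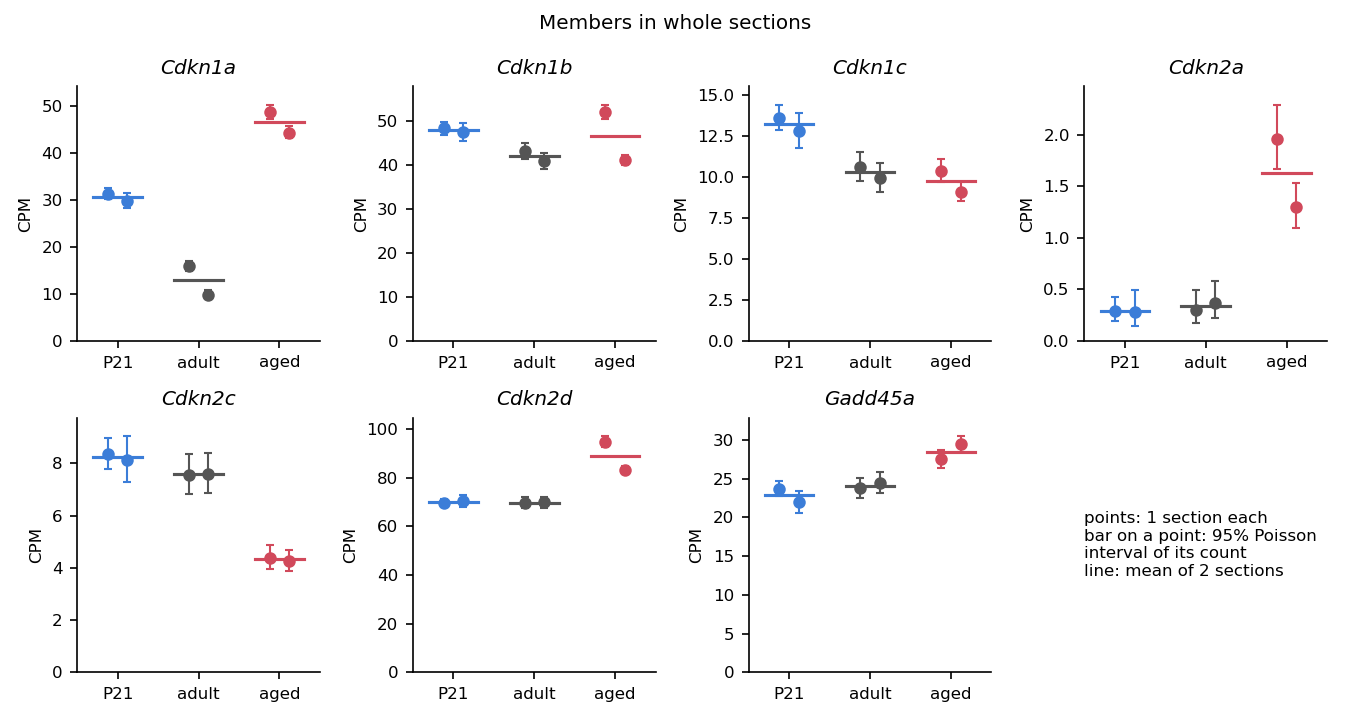
Level of each of the 7 genes in the 6 whole sections, in CPM, 1 panel per gene and 1 point per section, grouped by age. Cdkn1a falls from P21 to adult and is highest in the aged sections, Cdkn2a is at 1.30 CPM or more in the aged sections, and Cdkn2c is lowest there.

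Cdkn1a was at 31.3 and 29.8 CPM in the 2 P21 sections, 15.9 and 9.86 CPM in the adults and 48.6 and 44.3 CPM in the aged sections. The 3 ages did not overlap, and the adults differed from each other more than the sections of the other ages did. The log2 fold change against adults was 1.24 ± 0.16 (SE) at P21 (edgeR adjusted p = 0.000211) and 1.74 ± 0.15 in aged sections (adjusted p = 1.3e-05). Cdkn1a was the 1 member of 7 called at P21, where 8.06% of the 18104 genes tested were called, 5.69% higher and 2.37% lower. Other lists moved at the same ages. All 8 markers of mature oligodendrocytes were higher at P21 (summed 25694 to 26846 CPM against 12526 to 12902 in adults and 8122 to 8308 in aged sections, where 5 of 8 were lower), as were 4 of 4 erythrocyte markers (1284 to 2266 against 166 to 319.7 CPM), and 5 of 7 immediate early genes were higher in aged sections (1199 to 1327 against 269.9 to 422 CPM). Counting both directions, edgeR at P21 also called 5 of 5 ependymal, 4 of 7 immediate early, 3 of 6 meningeal fibroblast and 3 of 7 oligodendrocyte precursor genes. In aged sections it also called 4 of 6 meningeal fibroblast, 4 of 7 oligodendrocyte precursor, 3 of 8 microglia and 2 of 6 astrocyte genes. It called 2 of 6 choroid plexus and 2 of 7 endothelial and mural genes there as well. Over all genes tested, 28.4% were called in aged sections, 23.8% higher and 4.68% lower. Lists with 2 or 3 aged calls are close to that share, so these counts are not a result about those cell types. Other marker lists had fewer calls. None of these markers was at 0 in any whole section, and their part in the Cdkn1a changes was not tested. Counted in spots thinned to 5000 UMIs each, 13.7% and 13.9% of P21 spots, 7.26% and 4.24% of adult spots and 21.5% and 21.4% of aged spots held a Cdkn1a UMI.

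Cdkn2a was rare. Sections 1 and 2 held 26 and 12 UMIs at P21, 16 and 19 as adults, and 161 and 139 when aged. In CPM this was 0.289 and 0.283, 0.305 and 0.371, and 1.96 and 1.30. The 95% Poisson intervals of the aged sections, 1.67 to 2.29 and 1.09 to 1.54 CPM, lay above those of the adults, 0.174 to 0.495 and 0.223 to 0.579 CPM, where an interval covers counting error only. The log2 fold change was 2.16 ± 0.30 in aged sections (edgeR adjusted p = 0.000204) and −0.24 ± 0.38 at P21 (adjusted p = 0.703). The counts are per gene, so transcripts of p16 and of ARF were not told apart.

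Cdkn2c fell from 7.56 and 7.61 CPM in adults to 4.39 and 4.26 CPM in aged sections, a log2 fold change of −0.92 ± 0.12 (edgeR adjusted p = 0.000102), while P21 sections held 8.37 and 8.13 CPM. The aged pair lay below all 4 other sections. Together with Cdkn1a and Cdkn2a it made 3 of 7 members called in the aged comparison, where 28.4% of the 18104 genes were called, 23.8% higher and 4.68% lower. With 28.4% of all genes called, a count of 3 of 7 is not a result about the members as a group.

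The other members moved little in whole sections, which sum over brain regions that need not move alike. Cdkn1c was lower in some regions of the aged sections, as given below by zone. Cdkn1c was at 13.6 and 12.8 CPM at P21, 10.6 and 9.91 in adults and 10.4 and 9.08 when aged, and its P21 difference of 0.36 ± 0.11 passed the p (edgeR adjusted p = 0.0371) but not the fold. Cdkn2d was at 69.6 and 70.5, 69.7 and 69.9, and 94.9 and 83.1 CPM, and its aged difference of 0.24 ± 0.08 also passed the p alone (adjusted p = 0.0214). Cdkn1b was at 48.3 and 47.5, 43.2 and 40.8, and 52.1 and 41.1 CPM, and the ranges of the aged and adult pairs overlapped. Gadd45a was at 23.7 and 21.9, 23.8 and 24.4, and 27.5 and 29.4 CPM, with a log2 fold change of 0.13 ± 0.07 in aged sections that did not pass (adjusted p = 0.135).

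The 20336 spots were grouped into zones by clustering without the members or the lists of cell cycle pathway genes. Genes of the cell type and immediate early lists were not kept out, so their sums in a zone are not independent of the clustering. The zones were named from marker panels. These were cortex (CTX, 6665 spots), hippocampus (HP, 1919), thalamus (TH, 3309), hypothalamus (HY, 3742), striatum (STR, 1131), fiber tracts (FT, 2065), ventricular system (VS, 208), reticular thalamus (RT, 239) and meninges with large vessels (MEN, 1058). The first 6 were tested. Sections differed in how many spots of a zone they held. The adult pair had 32 and 13 VS spots, the aged pair 67 and 50. For HY these counts were 373 and 449 versus 636 and 885. HP went the other way, with 351 and 422 versus 284 and 240. Levels of whole sections depend on this mix too, and its part in them was not tested. The VS holds choroid plexus, whose 6 markers summed to 103253 to 138509 CPM there, and the FT are the white matter, rich in oligodendrocytes.

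**Figure D2:**
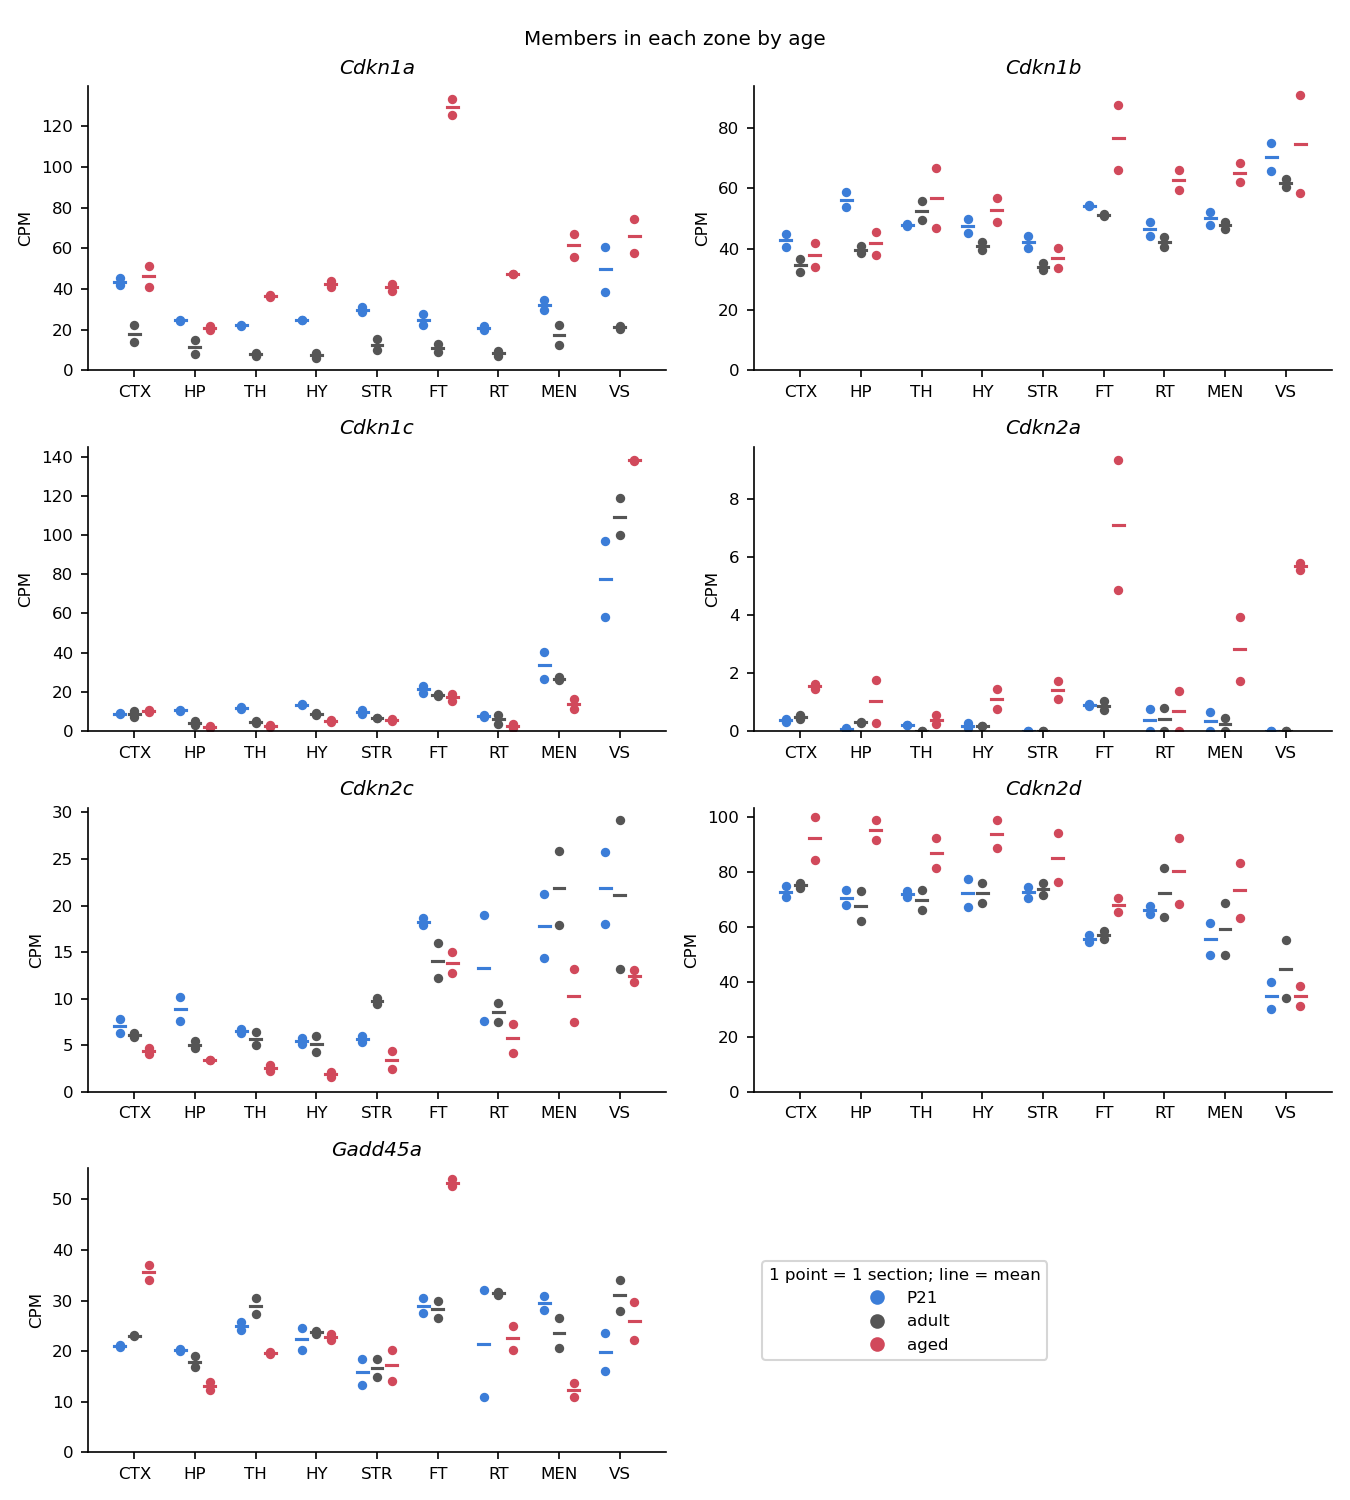
Mean level of each gene in each of the 9 zones at the 3 ages, in CPM, with the single sections as points. Cdkn1c stands out in the VS at every age, and Cdkn1a in the FT of the aged sections.

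Over the 6 sections, the zones differed most for Cdkn1c, which averaged 108 ± 30.4 CPM (SD, n = 6) in the VS, 10.1 times the mean of the other zones, and was highest there in 6 of 6 sections. MEN followed at 24.6 and the FT at 18.9 CPM, above every other zone on the mean, and RT and HP were lowest at 5.30 and 5.46 CPM, which did not differ beyond their spread. Cdkn1b was highest in the VS (69.0 ± 12.2) and then in the FT (60.8 ± 14.2), and lowest in STR (37.8 ± 4.48) and CTX (38.5 ± 4.89), within the spread of each other. Cdkn2c was highest in the VS, MEN and FT at 18.5, 16.6 and 15.4 CPM, 3 zones within each other's spread, and lowest in HY at 4.13 CPM. Cdkn2d ranged on the mean from 80.2 CPM in CTX through HY, HP, STR, TH and RT down to 38.1 CPM in the VS. The VS was below the FT in 6 of 6 sections, but in adult section 1 MEN was lower still. Gadd45a was highest in the FT on the mean (36.9 ± 12.8), and above the mean of the other zones there in 6 of 6 sections. In adults RT was higher, at 31.8 and 31.1 against 29.9 and 26.5 CPM in the FT. At P21 MEN was higher, at 31.0 and 28.1 against 30.5 and 27.5 CPM. Gadd45a was lowest in STR (16.5 ± 2.82) and HP (17.1 ± 3.36). Cdkn1a had no fixed order: the FT led on the mean (55.1 ± 58.1) but was above the VS in only 2 of 6 sections, both of them aged. These orders are a description over sections of 3 ages.

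At P21, 9 of the 38 tested pairs of a member and a zone were called, all of them higher than in adults. Cdkn1a was higher in all 6 zones, with log2 fold changes of 1.28 in CTX, 1.12 in HP, 1.53 in TH, 1.75 in HY, 1.29 in STR and 1.23 in FT (edgeR adjusted p from 5.69e-05 to 0.00611). The background of genes called at P21 was 6.34% in CTX, 7.33% in HP, 7.8% in TH, 4.61% in HY, 3.73% in STR and 9.55% in FT, and counted as higher alone it was 4.38%, 5.66%, 4.99%, 2.9%, 2.7% and 5.44%. In the FT the 8 mature oligodendrocyte markers were also all higher at P21, at a sum of 85184 to 99366 CPM against 43439 to 45418 CPM in adults, and their part was not tested. In CTX Cdkn1a was at 45.4 and 41.8 CPM at P21 against 22.0 and 13.8 in adults, and in HY at 24.5 and 24.6 against 8.34 and 6.19. A test of whether the Cdkn1a change at P21 differed between zones did not pass (adjusted p = 0.385). The HP call was lost without P21 replicate 1, P21 replicate 2 or adult replicate 2 (adjusted p = 0.1, 0.0526 and 0.0954) and the STR call without P21 replicate 1 (0.101).

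Cdkn1c was higher at P21 in TH, at 11.2 and 12.3 CPM against 4.81 and 4.18 in adults (log2 fold change 1.41, edgeR adjusted p = 0.00107), and in HP, at 10.4 and 10.5 against 4.85 and 3.0 (1.40, adjusted p = 0.00682). Both P21 sections lay above both adults in each zone. In CTX it did not pass, at a log2 fold change of 0.02 (adjusted p = 0.944), and the difference between zones was called for Cdkn1c (adjusted p = 0.00204). The HP call was lost without P21 replicate 1, P21 replicate 2 or adult replicate 2 (adjusted p = 0.117, 0.0532 and 0.129). Cdkn2c was higher in HP at 10.1 and 7.62 against 4.69 and 5.42 CPM (0.83, adjusted p = 0.0396), a call lost without any 1 of the P21 or adult sections (P21 replicate 1 0.433, P21 replicate 2 0.0762, adult replicate 1 0.226, adult replicate 2 0.169). Without P21 replicate 1, P21 replicate 2 or adult replicate 2 the number of pairs called at P21 was 5, 6 and 6.

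In aged sections 16 of the 38 pairs were called, 11 higher and 5 lower. The background of genes called was 12.9% in CTX, 12.2% in HP, 15% in TH, 11.8% in HY, 14.2% in STR and 31.4% in FT, where 18.4% were higher and 13% lower. Cdkn1a was higher in all 6 zones and most in the FT. It rose there from 13.1 and 8.73 CPM in adults to 126 and 134 CPM in aged sections, with P21 at 22.2 and 27.5 CPM, a log2 fold change of 3.59 ± 0.15 (edgeR adjusted p = 6.29e-11). No other zone of the aged sections that was tested exceeded 51.2 CPM. The changes elsewhere were 2.51 in HY, 2.27 in TH, 1.69 in STR, 1.34 in CTX and 0.93 in HP (adjusted p from 1.8e-06 to 0.00802). In HP the aged sections were at 21.7 and 19.7 CPM against 14.7 and 7.85 in adults, and that call was lost without adult replicate 2 (0.54, adjusted p = 0.108). The change differed between zones (adjusted p = 2.19e-09) and still did with the FT left out (adjusted p = 4.92e-05).

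**Figure D3:**
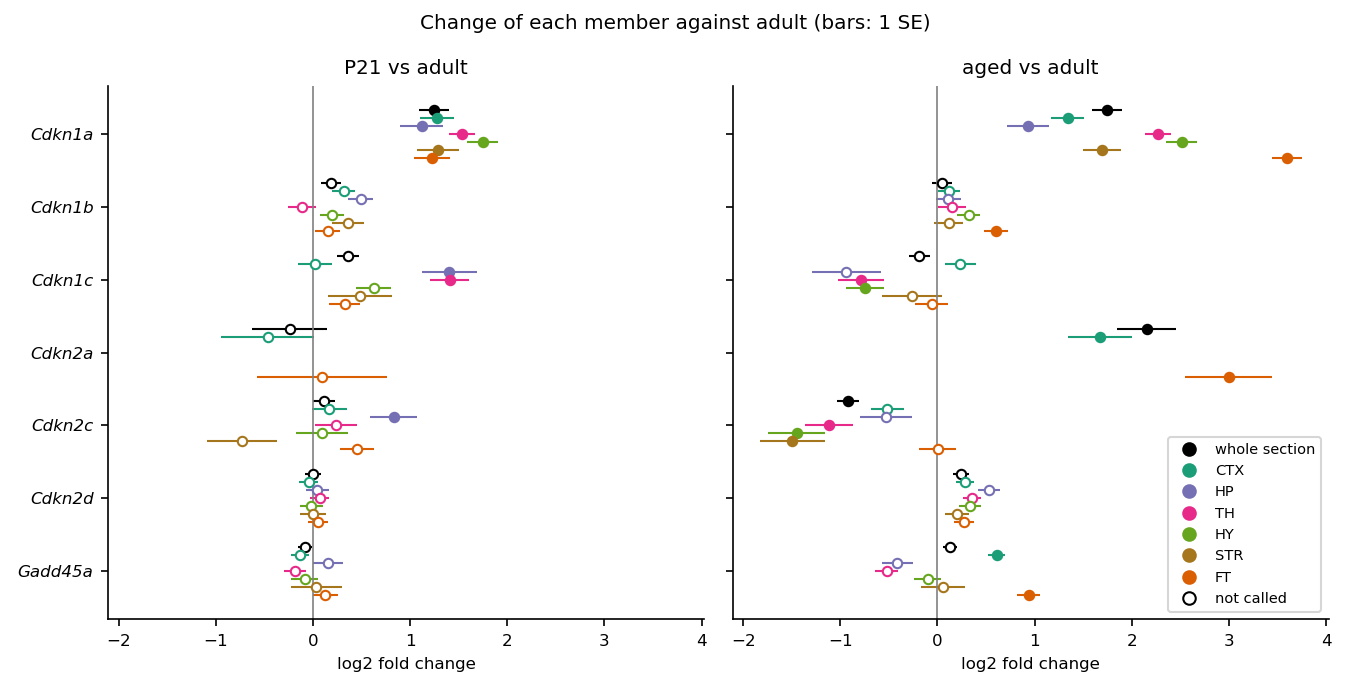
Log2 fold change against adults of each gene in the whole section and in each tested zone, at P21 and in aged sections, with bars of 1 standard error. Cdkn1a in the aged FT lies at 3.59, above every other point, and Cdkn2c lies below 0 in aged TH, HY and STR and at 0.00 in the FT.

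**Figure D4:**
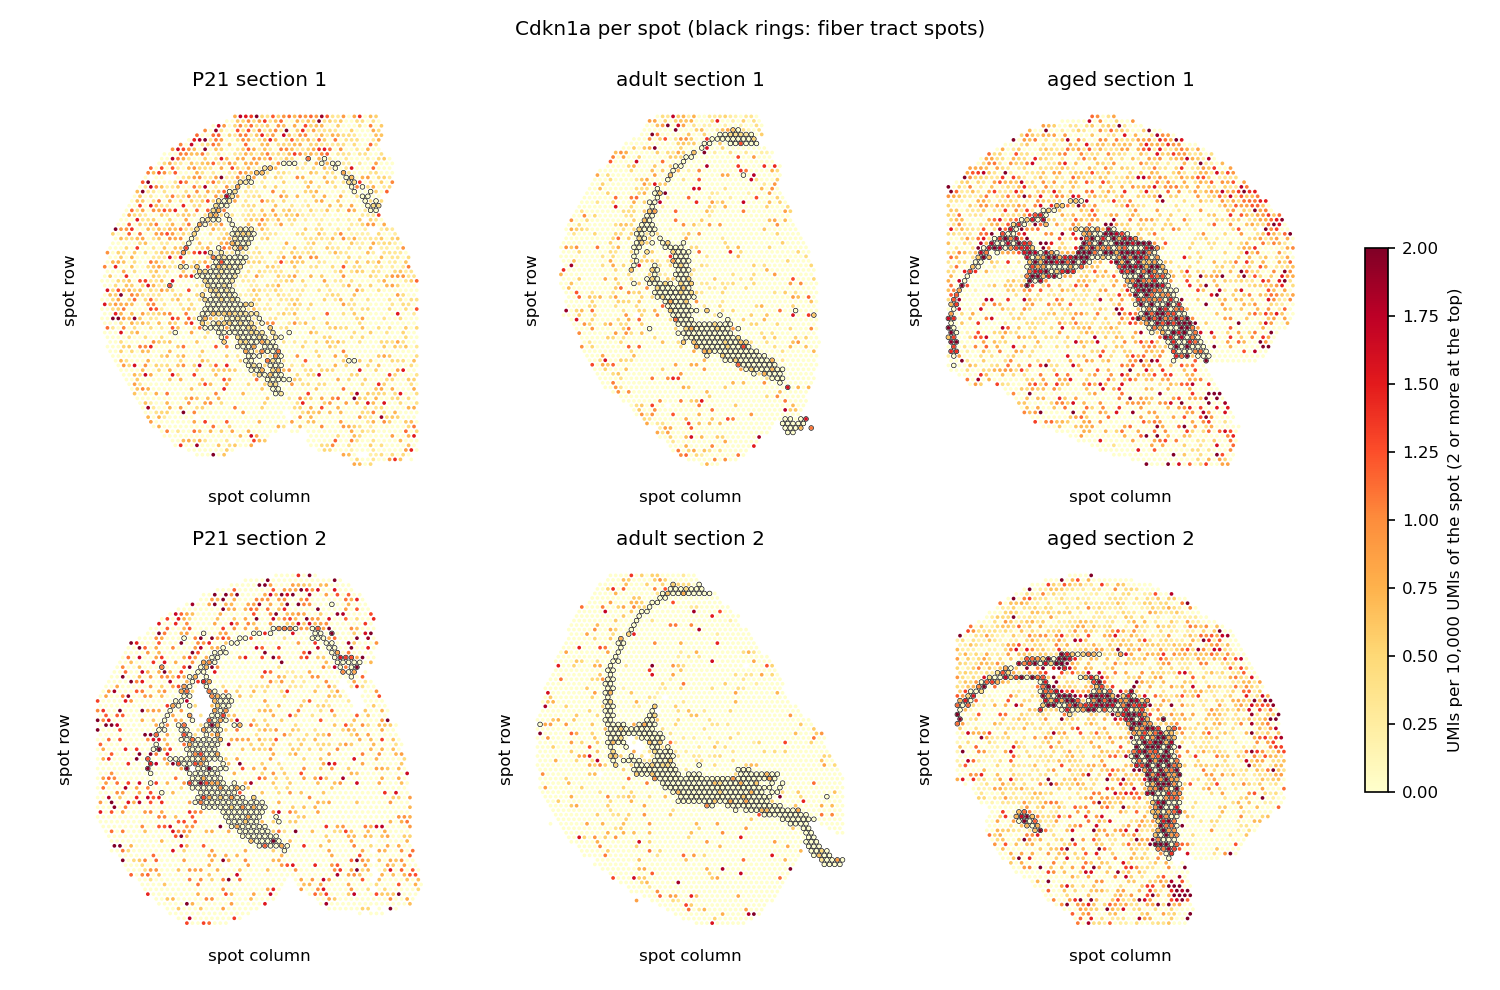
Cdkn1a in the spots of all 6 sections at their positions on the slide, as UMIs per 10000 UMIs of the spot (colour scale capped at 2), with the FT spots ringed in black. In the aged sections the ringed spots carry the strongest colour.

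Cdkn2a was at 9.33 and 4.87 CPM in aged FT (44 and 25 UMIs) against 0.717 and 1.03 CPM in adults (4 and 6 UMIs) and 0.914 and 0.850 CPM at P21 (7 and 3 UMIs). In CTX it went from 0.413 and 0.541 CPM in adults to 1.62 and 1.45 CPM in aged sections, a log2 fold change of 1.67 ± 0.33 (edgeR adjusted p = 0.00181). These were the only zones in which Cdkn2a passed the filter on low counts. In the FT the aged sections alone reached the filter's level of 1.87 CPM, so the call there, 1 of the 16, is given as levels only and supports nothing. In CTX both adult sections reached the level of 0.411 CPM as well. The other zones held few UMIs. In STR it was at 0 in all P21 and adult sections, where 3 UMIs would be 0.777 to 1.99 CPM, and at 1.11 and 1.72 CPM (6 and 11 UMIs) in aged sections. In the VS it was at 0 in the same 4 sections, where 3 UMIs would be 2.63 to 7.29 CPM, and at 5.55 and 5.79 CPM (8 UMIs each) in aged sections. A difference of the Cdkn2a change between zones did not pass (adjusted p = 0.256).

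Gadd45a was higher in aged FT, at 52.6 and 54.0 CPM against 29.9 and 26.5 in adults (0.94 ± 0.12, edgeR adjusted p = 7.54e-06), and in aged CTX, at 34.1 and 37.1 against 23.0 and 23.1 CPM (0.61 ± 0.09, adjusted p = 0.000243). In TH it moved the other way, at 19.4 and 19.9 CPM against 27.3 and 30.6, with a log2 fold change of −0.52 that passed the p (0.00622) but not the fold. This difference between zones passed (adjusted p = 1.24e-07), also with the FT left out (adjusted p = 4.59e-05). The CTX value fell under the fold without aged replicate 2 (0.58) and in spots whose neighbours were all of the zone (0.49). Cdkn1b was higher in aged FT, at 87.6 and 66.1 CPM against 51.6 and 50.9 (0.60 ± 0.12, adjusted p = 0.000769). It fell under the fold without P21 replicate 1 (0.56), P21 replicate 2 (0.58), adult replicate 2 (0.55) or aged replicate 1 (0.37). Its difference between zones did not pass in the aged comparison (adjusted p = 0.0564) and did at P21 (adjusted p = 0.0159), although no zone called it at P21.

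The 5 pairs that fell with age were Cdkn2c in TH, HY and STR and Cdkn1c in TH and HY. Cdkn2c was at 2.17 and 2.89 CPM in aged TH against 6.38 and 4.98 in adults (−1.12, edgeR adjusted p = 0.00561). In aged HY it was at 1.56 and 2.14 against 5.96 and 4.23 CPM (−1.45, adjusted p = 0.00978), and in aged STR at 2.40 and 4.39 against 10.1 and 9.47 CPM (−1.49, adjusted p = 0.00267). In CTX the value of −0.51 passed the p (0.0317) but not the fold, and in the FT it was 0.00 (adjusted p = 0.992), at 12.7 and 15.0 against 12.2 and 15.9 CPM. The zones differed for Cdkn2c (adjusted p = 0.00461), but not with the FT left out. The HY call was lost without adult replicate 1 (adjusted p = 0.0665) and in spots surrounded by their own zone (0.108). Cdkn1c was lower in aged TH, at 2.87 and 2.17 against 4.81 and 4.18 CPM (−0.79, adjusted p = 0.0277), and in aged HY, at 4.69 and 5.76 against 8.0 and 9.28 CPM (−0.74, adjusted p = 0.0244). In TH this call was lost without any 1 section but aged replicate 1 (adjusted p = 0.0556 and 0.0528 without P21 replicates 1 and 2, 0.127 and 0.0704 without adult replicates 1 and 2, and 0.0965 without aged replicate 2). In HY it was lost without any 1 section but aged replicate 2 (0.0583, 0.0585, 0.0529, 0.129 and 0.0581 in the same order, the last without aged replicate 1).

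The differences between zones were called for 2 of 7 members at P21 (Cdkn1b and Cdkn1c), where 8.98% of 15127 genes were called, and for 4 of 7 in the aged comparison (Cdkn1a, Cdkn1c, Cdkn2c and Gadd45a), where 40.9% were. At P21 edgeR called 0 without P21 replicate 1, P21 replicate 2 or adult replicate 2 (2, 3 and 3 at an unadjusted p under 0.05), and 1 without adult replicate 1. In the aged comparison the count was 2 without adult replicate 1, where Cdkn1a and Gadd45a remained. Cdkn2d was called in none of the 6 zones at either age. Its nearest value was 0.53 in aged HP (edgeR adjusted p = 0.0042), at 99.2 and 91.6 CPM against 62.2 and 73.2 in adults.

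Within the FT, spots whose neighbours were all FT spots (inner) were set beside the rest (edge). Cdkn1a was at 154 and 166 CPM in the inner spots of the aged sections and at 99.0 and 116 CPM at their edge. In adults the order was the other way, with 7.89 and 6.61 CPM inside and 16.1 and 10.2 CPM at the edge, and likewise at P21 with 15.5 and 26.0 against 24.8 and 28.3 CPM. The aged log2 fold change over inner spots alone was 4.58 (edgeR adjusted p = 3.63e-16). Gadd45a in aged FT was at 45.2 and 45.3 CPM inside and 59.5 and 58.5 CPM at the edge, the opposite order to Cdkn1a in these sections. In adults Gadd45a was lower inside as well, at 28.6 and 23.5 against 30.7 and 28.7 CPM. Its P21 sections went both ways, at 24.4 and 33.5 inside against 32.9 and 24.4 CPM. Cdkn1c in aged FT was at 25.4 and 22.1 CPM inside and 13.1 and 11.9 CPM at the edge, and Cdkn2c at P21 was at 25.3 and 26.0 against 16.1 and 13.7 CPM. Spots of one section are not replicates, so no test was made of inner against edge spots.

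**Figure D5:**
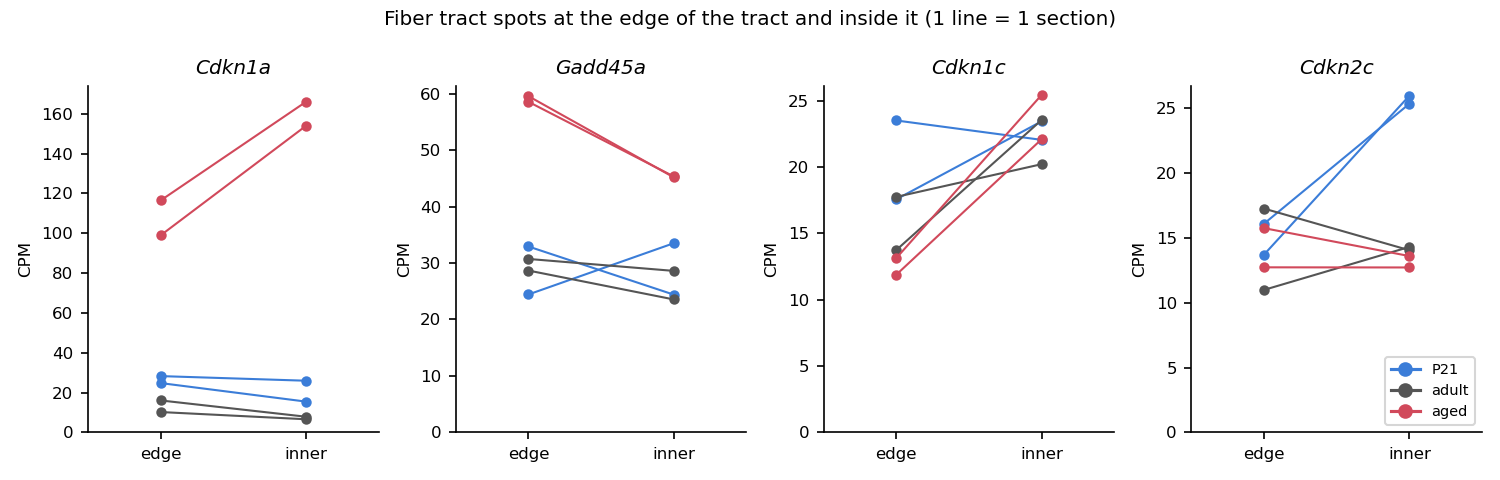
Level of Cdkn1a, Gadd45a, Cdkn1c and Cdkn2c in inner and edge spots of the FT, in CPM, with a line joining both values of each section. Cdkn1a is higher inside than at the edge in both aged sections and lower inside in the 4 others.

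The Cdkn1a signal of the aged FT was spread over many spots. A Cdkn1a UMI was found in 69.1% and 79.1% of aged FT spots, against 20.8% and 13.2% in adults and 42.2% and 26.2% at P21, and the most in 1 aged FT spot was 10 and 13 UMIs. The aged FT spots were not deeper than the adult ones, with medians of 10951.5 and 12691 UMIs against 17618 and 15026.5. Those of P21 section 1 were deeper, at a median of 25537.5 UMIs. The FT shares were not thinned, so that P21 share cannot be set directly beside the aged ones. Cdkn2a was found in 9.90% and 6.87% of aged FT spots and in 1.28% and 1.59% of adult ones. In the 40 and 25 aged FT spots with a Cdkn2a UMI, Cdkn1a was at 139 and 187 CPM. In the 364 and 339 without, Cdkn1a was at 124 and 129 CPM. Cdkn1b was higher with a Cdkn2a UMI too, at 89.9 and 81.3 against 87.3 and 64.9 CPM. Gadd45a was higher with it in section 2 but lower in section 1. The section 2 spots with it were also deeper, at a median of 15163 against 12660 UMIs. Spots of one section are not replicates, and whether Cdkn1a and Cdkn2a occur together was not tested.

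Markers of other cell types moved in the FT as well. The 8 markers of microglia summed to 724 to 809 CPM in adult FT and 2462 to 2499 in aged FT, with 7 of 8 called higher, and the 6 astrocyte markers to 3190 to 3223 and 5883 to 5899 CPM, with 3 of 6 called higher. Of the 8 markers of mature oligodendrocytes 1 was called higher, and their sum was 43439 to 45418 CPM in adult and 50818 to 52512 CPM in aged FT. Pan-neuronal markers were lower, with 3 of 5 called, and summed to 3581 to 3888 CPM in adult and 1962 to 1993 CPM in aged FT. None of these markers was at 0 in the FT of any section. Of the other marker lists in the aged FT, 2 of 7 endothelial and mural genes were called higher and 2 lower, 1 of 6 choroid plexus genes higher and 3 lower, 1 of 5 neuroblast genes higher and 2 lower, and 1 of 7 oligodendrocyte precursor genes higher and 1 lower. Higher calls also took in 2 of 5 ependymal, 2 of 4 erythrocyte and 3 of 7 immediate early genes, with 1 immediate early gene and 1 of 6 meningeal fibroblast genes lower. Over all genes tested in the aged FT, 18.4% were called higher and 13% lower. Beside these shares, a count of 1 or 2 in a list is not a result about that cell type. The part of all these genes in the member changes was not tested. In the FT spots above their section's median for the oligodendrocyte markers, a choice made after the data were seen, the aged log2 fold changes were 4.04 for Cdkn1a (edgeR adjusted p = 7.63e-17), 0.96 for Gadd45a and 0.72 for Cdkn1b. 

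Within HP, the pyramidal layers CA1-2 (178 spots) and CA3 (295), the dentate gyrus (DG, 281) and the surrounding matrix (1165) were fitted apart. At P21, 4 of the 21 tested pairs were called. They were Cdkn1a in CA3 (1.07, edgeR adjusted p = 0.0258) and matrix (1.03, 0.0205), and Cdkn1c and Cdkn2c in DG. In DG the adult and aged sections were too low to bring Cdkn1c and Cdkn2c past the filter on low counts. Their calls there are thus given as levels only and support nothing. In DG, Cdkn1c was at 11.5 and 6.51 CPM at P21, 1.24 and 1.67 in adults and 2.37 and 1.53 when aged, and Cdkn2c at 16.4 and 9.30, 3.73 and 5.57, and 3.95 and 3.67 CPM. In aged sections 3 were called: Cdkn1a in matrix (1.36, 0.00149), Cdkn2d in DG (0.62, 0.0227) and Gadd45a in CA1-2 (−2.11, 0.0369), the last at 1.02 and 2.84 against 7.51 and 11.9 CPM in adults. The background at P21 was 2.34% in CA1-2, 3.28% in CA3, 10.4% in DG and 5.29% in matrix, and in aged sections 7.37%, 8.59%, 6.86% and 15.5%. DESeq2 called 0 pairs at either age, with 5 at P21 and 6 in aged sections at an unadjusted p under 0.05, where edgeR had 11 and 6. Each of the 7 calls was lost without at least 1 section. At P21, edgeR called 0 pairs without P21 replicate 1 (5 at an unadjusted p under 0.05) or adult replicate 2 (6), 2 without P21 replicate 2 or adult replicate 1, and 7 without either aged section. Without either adult section 1 aged pair was called, and without aged replicate 2 there were 6.

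Gene neighbours by pattern were listed for the members with at least 2 CPM on average, as the highest Pearson r over the 36 sums of 6 sections and 6 zones among 12815 genes. For Cdkn1a these were Sult1a1 (0.83), Hif3a (0.83) and Cpsf1 (0.82), and for Gadd45a they were Frmd5 (0.82), Fam129b (0.81) and Kcna6 (0.79). For Cdkn1b they were Zscan29 (0.84), Cdr2l (0.82) and Pdgfd (0.82), and for Cdkn1c Jund (0.87), Rnf144a (0.87) and Tmem159 (0.86). For Cdkn2c they were Nras (0.89), Atp8b1 (0.89) and P2ry12 (0.87), the last a microglial receptor, and for Cdkn2d Ube2k (0.90), Fzr1 (0.90) and Stk25 (0.89). Among the members, Cdkn2c and Cdkn2d ran opposite (r = −0.81), Cdkn1c and Cdkn2c together (0.73) and Cdkn1a with Cdkn2a (0.67). Cdkn2a averaged under 2 CPM and was at 0 in some of the sums, so its r rests on few UMIs. The 36 sums share sections, so these are descriptions. The study's authors also deposited Moran's I, a score of how far neighbouring spots share a level. It was 0.249 and 0.320 for Gadd45a in aged sections against 0.0609 and 0.0652 in adults, and 0.142 and 0.179 for Cdkn1a against 0.0358 and 0.0190. For Cdkn1a the P21 pair scored 0.105 and 0.0499. Ranked among the genes of its section, Gadd45a stood above 91.3% and 93.0% of them when aged, versus 81.0% and 83.2% for the adult pair. Cdkn1a stood above 84.0% and 84.9% when aged, with 71.8% and 59.8% for the adult pair. Its P21 ranks, 86.9% and 81.6%, were close to the aged ones. The score was not tested, and the sections differ in depth.

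Other genes of the cell cycle pathway were read from lists. Of 21 p53 genes tested in whole aged sections, 2 were called higher, the death receptor gene Eda2r (1.58, edgeR adjusted p = 0.003) and the stress cytokine gene Gdf15 (0.93, 0.00608), and 2 lower, the apoptosis gene Bbc3 (−0.94) and the DNA repair gene Ddb2 (−0.82), where 23.8% of all genes were called higher and 4.68% lower. The median over the list was 0.03, against 0.04 over all genes tested. In the aged FT 7 of 21 were called higher and 1 lower, beside 18.4% and 13% of all genes, with a median of 0.29 against 0.03 over all genes, and Eda2r (2.28), Gdf15 (2.14) and Fas (1.45) were among those higher, the last named after its value was seen. At P21, 0 of the 21 were called by edgeR or DESeq2, with 13 and 10 at an unadjusted p under 0.05.

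Of 14 senescence-associated genes, 9 were called higher and 1 lower in whole aged sections, where 23.8% and 4.68% of all genes were. The median was 1.17 against 0.04 over all genes, and takes in genes near 0 in adults. At P21, 0 were called by edgeR or DESeq2 (3 and 2 at an unadjusted p under 0.05), where edgeR called 8.06% of all genes. The nuclear lamina gene Lmnb1 was lower, at 5.81 and 6.66 CPM against 9.26 and 8.90 in adults (−0.65, edgeR adjusted p = 0.000535). The protease gene Mmp12 was at 0.768 and 1.57 CPM against 0.0190 and 0, the cytokine gene Tnf at 0.512 and 0.496 against 0.0571 and 0.0586, and Mmp3 at 0.317 and 0.365 against 0.0190 and 0. All aged values of Mmp12, Tnf and Mmp3 lay above the adult ones, and the adult values were each 3 UMIs or fewer. The adult sections were thus too low to bring these genes past the filter on low counts. Their calls, which are among the 9, are given as levels only and support nothing. In the aged FT 9 of the 12 tested were called higher and 1 lower, beside 18.4% and 13% of all genes. The median was 2.53 against 0.03 over all genes. The filter there left out the other 2, and it can pass a gene through the aged sections alone, so this count is a description.

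Of 9 proliferation genes tested, 4 were called lower in aged sections, Mki67 (−1.89), Top2a (−1.09), Tyms (−0.67) and Mcm5 (−0.65), and none higher (median −0.53 against 0.04 over all genes). For this list and those that follow, the shares over all genes in whole sections were 23.8% higher and 4.68% lower in the aged comparison. At P21 they were 5.69% higher and 2.37% lower. Mki67, a mark of dividing cells, went from 3.24 and 3.11 CPM (P21) to 1.41 and 1.37 (adult) and 0.415 and 0.393 (aged). At P21, 3 of the 9 were called higher (Mki67 1.19, Top2a 1.09, Birc5 0.71), as were 3 of 11 cyclins and kinases (Ccna2 0.94, the mitotic kinase gene Cdk1 1.25 and Cdk2 0.60) and 1 of 4 other inhibitors and Gadd45 genes (Cdkn2b, the neighbour of Cdkn2a, 0.75, edgeR adjusted p = 0.0234). DESeq2 called 2, 3 and 0 in these 3 lists, so Cdkn2b was called by edgeR alone. In aged sections edgeR called 0 of these 4 and 0 of the 11, with 1 and 5 at an unadjusted p under 0.05, and DESeq2 called 1 and 0. Of 8 pocket protein and E2F genes, Rbl1 was lower in aged sections (−0.71), and edgeR called 0 at P21 (3 at an unadjusted p under 0.05). Of 10 regulators of the inhibitors, Cbx7, a Polycomb gene that represses Cdkn2a, was at 48.4 and 45.6 CPM at P21 against 93.1 and 92.7 in adults (−0.99, adjusted p = 2.88e-06), and Klf4, an activator of Cdkn1a, was higher in aged sections, at 6.32 and 5.14 CPM against 2.72 and 2.56 (1.01, adjusted p = 0.000408).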

How the data were processed

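Fixed coronal brain sections of 6 mice were assayed with the probe-based Visium kit. The authors deposited UMI counts per gene and spot from Space Ranger, which the file headers give as 2.0.0 for P21 and adult and 3.1.1 for aged sections while the labels give 2.1.0. Seurat 5.1.0 is also named in the labels. They also deposited a Moran's I score per gene. The other deposited files were not used, apart from spot positions. Spots with at least 250 genes and 500 UMIs were kept, 2917 to 3679 per section, with 42422997 to 106783660 UMIs per section and medians of 12074.5 to 25535 UMIs per spot. Of 19465 genes, 565 were at 0 in all P21 and adult sections, of which 388 had over 20 UMIs in the aged ones. The aged sections shared 0 barcodes with the others.

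Clusters (Leiden, leidenalg 0.10.2, resolution 0.25, 3000 variable genes, 10 components, 20 neighbours, 13 clusters) were made without the 84 genes of the members and the cell cycle pathway lists. The cell type and immediate early lists were not kept out. Clusters were named from marker panels. UMIs were summed per section and zone, and a model of age was fitted over all 6 sections with edgeR 4.0.16 (TMM, filterByExpr, quasi-likelihood test) in R 4.3.3. The zone differences were an F test of zone-by-age terms with section as a block. Spot shares of whole sections were compared after thinning to 5000 UMIs, and those within the FT are given without thinning. Bounds at 0 use 3 counts, and intervals are 95% Poisson intervals for counting error. The self-test used simulated counts. All 7 members were named throughout. From each list every gene called in whole sections was named, or, where more than 4 were called, the 4 with the smallest adjusted p (for lists with no call, the 2 with the highest mean CPM, which no list needed). The members and lists were chosen with earlier results of these data known. Alternatives were library size alone, no filter, thinned counts, DESeq2 1.42.0, a replicate block, the study's detection criteria, no fold minimum, inner spots, the next clustering resolution and leaving out each section. Replicates were labelled as biological.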

Additional observations from a re-analysis of the deposited data

Results flagged for a closer look

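A difference of the age change between zones was the only pattern singled out, in the test of zone-by-age terms with section as a block. At P21 it passed for Cdkn1b (edgeR adjusted p = 0.0159) and Cdkn1c (0.00204). In the aged comparison it passed for Cdkn1a (2.19e-09), Gadd45a (1.24e-07), Cdkn1c (0.00278) and Cdkn2c (0.00461). The values by zone that lie behind each are those of the report.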

How the results depend on the processing

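The calls of Cdkn1a in whole sections, CTX, TH, HY and FT at both ages, of Cdkn2c in aged whole sections and STR, and of Cdkn1c in P21 TH held under every alternative run. Those of Cdkn2a in aged whole sections and CTX and of Cdkn2c in aged TH held wherever they were tested. No called value changed sign, and values that were not called were not checked for this. Without the fold minimum, 2 members were called in P21 whole sections and 5 subzone pairs in aged sections. Thinned to the lowest section, 1 subzone pair was called at P21 and 1 in aged sections, and DESeq2 called 0 and 0 (5 and 6 at an unadjusted p under 0.05). At the next clustering resolution 1 member differed between zones at P21. Leaving out each section gave 1 to 1 members and 5 to 10 zone pairs, 0 to 7 subzone pairs and 0 to 2 zone differences at P21, and 3 to 3, 13 to 17, 1 to 6 and 2 to 5 in the aged comparison. The study's detection criteria left untested Cdkn2a in aged whole sections and 5 pairs called in aged zones (Cdkn2a in CTX and FT, Cdkn1c in TH, and Cdkn2c in TH and HY), and 2 aged members and 11 aged zone pairs were then called. Over all genes they left 1017 of 11315 called in aged whole sections in place of 5148 of 18104, and 571 of 11153 in place of 1460 at P21.

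The replicate numbers did not pair the sections: deviations of same-numbered sections correlated at 0.15 (P21 and adult), −0.34 (adult and aged) and −0.14 (P21 and aged) over 12826 genes. With the replicate number as a block, 1 member, 8 zone pairs and 3 subzone pairs were called at P21 and 3, 16 and 3 in aged sections. With the aged numbers crossed, an alternative chosen after seeing the data, the block gave 1, 8 and 2 at P21 and 3, 16 and 4 in aged sections. Depth limits Cdkn2a, whose whole adult sections held 16 and 19 UMIs.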

Other observations

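In zones that were not tested, the VS held Cdkn1c at 97.0 and 58.0 CPM at P21, 99.9 and 119 CPM in adults and 138 and 138 CPM in aged sections. MEN held Cdkn1c at 40.3 and 26.8, 27.5 and 25.8, and 11.2 and 16.1 CPM, and the aged pair lay below the other 4. Gadd45a in MEN was at 31.0 and 28.1, 20.6 and 26.5, and 13.8 and 10.9 CPM, again lowest in the aged pair. Cdkn2d in the VS was at 39.9 and 30.1, 55.2 and 34.0, and 31.2 and 38.4 CPM, with the ages overlapping. No test was made in these zones.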
